A study of Mus musculus with 6 samples.

Results

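The extracellular matrix and fibrosis genes of the liver were examined in bulk RNA-seq of WT and Prox1-cKO mice. The group holds 55 genes out of the 29667 in the count table, chosen by gene symbol as structural matrix genes and the enzymes that mature or degrade them. These genes were chosen with earlier results of these data known. They were divided into 5 fibrillar collagens, 7 other interstitial collagens, 12 basement membrane genes, 6 elastic fibre and fibulin genes, 6 glycoproteins, 6 proteoglycans, 5 crosslinking and collagen maturation genes, 5 matrix metalloproteinases and 3 tissue inhibitors of metalloproteinases (TIMPs). Livers of 3 WT mice, which carry floxed Prox1 (Prox1f/f) and no Cre, were compared with livers of 3 Prox1-cKO mice (Alb-Cre; Prox1f/f), in which Cre recombinase under the albumin promoter deletes Prox1. The albumin promoter is active in hepatocytes and not in the fibroblasts, stellate cells and endothelial cells that make most interstitial matrix. Poly(A)-selected mRNA was sequenced. The sources used here give no age, sex or treatment for these 6 animals, and they do not say whether the animals were among those treated with DEN in the study. Each p-value reflects only how these samples vary, and in bulk liver RNA fewer cells of a type and less RNA per cell cannot be told apart.

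The matrix of the liver has an interstitial part, built on fibrils of type I, III and V collagen, and basement membranes, which are sheets of type IV collagen, laminin, nidogen and perlecan. Stellate cells, portal fibroblasts and endothelial cells are known as main sources of these proteins in healthy liver, while hepatocytes secrete plasma fibronectin and much of the type XVIII collagen. In fibrosis, stellate cells and portal fibroblasts turn into myofibroblasts that lay down fibrillar collagen, and lysyl oxidases crosslink it into scar.

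Libraries held 18066205 to 19921674 reads in genes in WT and 19036950 to 20537091 in Prox1-cKO. Levels are given as CPM, the reads of a gene brought to a common library total and corrected by TMM factors, which lay between 1.09 and 1.20 for WT and between 0.842 and 0.893 for Prox1-cKO. Genotypes were tested against each other with the quasi-likelihood method of edgeR over the 14843 genes that passed its filter on low counts, and calls were made where the p adjusted by the Benjamini-Hochberg method was under 0.05. Scaling by library totals alone shifted the log2 fold change of all genes by a median of −0.41. Prox1 itself was 558, 729 and 837 CPM in WT and 212, 179 and 172 CPM in Prox1-cKO (log2 fold change −1.91, standard error 0.20, adjusted p = 6.05e-04), so the labels matched the deleted gene. On a principal component analysis, WT replicate 3 stood away from the rest on the second principal component (9.87% of the variance), and it was the highest of the 3 WT libraries for 33 of the 55 matrix genes.

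Most matrix genes, in a list chosen with earlier results of these data known, were lower in Prox1-cKO livers. Of the 55, 54 passed the filter. Of these, 41 fell, 2 rose (Col18a1 and Mmp19) and 11 did not pass the test. Over all 14843 genes tested, 20.2% fell and 14.1% rose under the same rule. With library totals alone the split over all genes was 6060 lower and 725 higher, and that of the matrix genes was 46 lower and 0 higher. The median log2 fold change (Prox1-cKO over WT) was −1.34 over the matrix genes and −0.02 over all genes tested. In 45 of the 55 matrix genes every Prox1-cKO library lay below every WT library, against 26.6% of all genes tested, and in 2 every Prox1-cKO library lay above, against 23.3%. The counts of each class given below stand beside these same shares over all genes tested. Among the 41 that fell, 9 fell by at least 2 on the log2 scale, 27 by 1 to 2 and 5 by under 1. Without WT replicate 3, 40 fell and 2 rose.

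**Figure D1:**
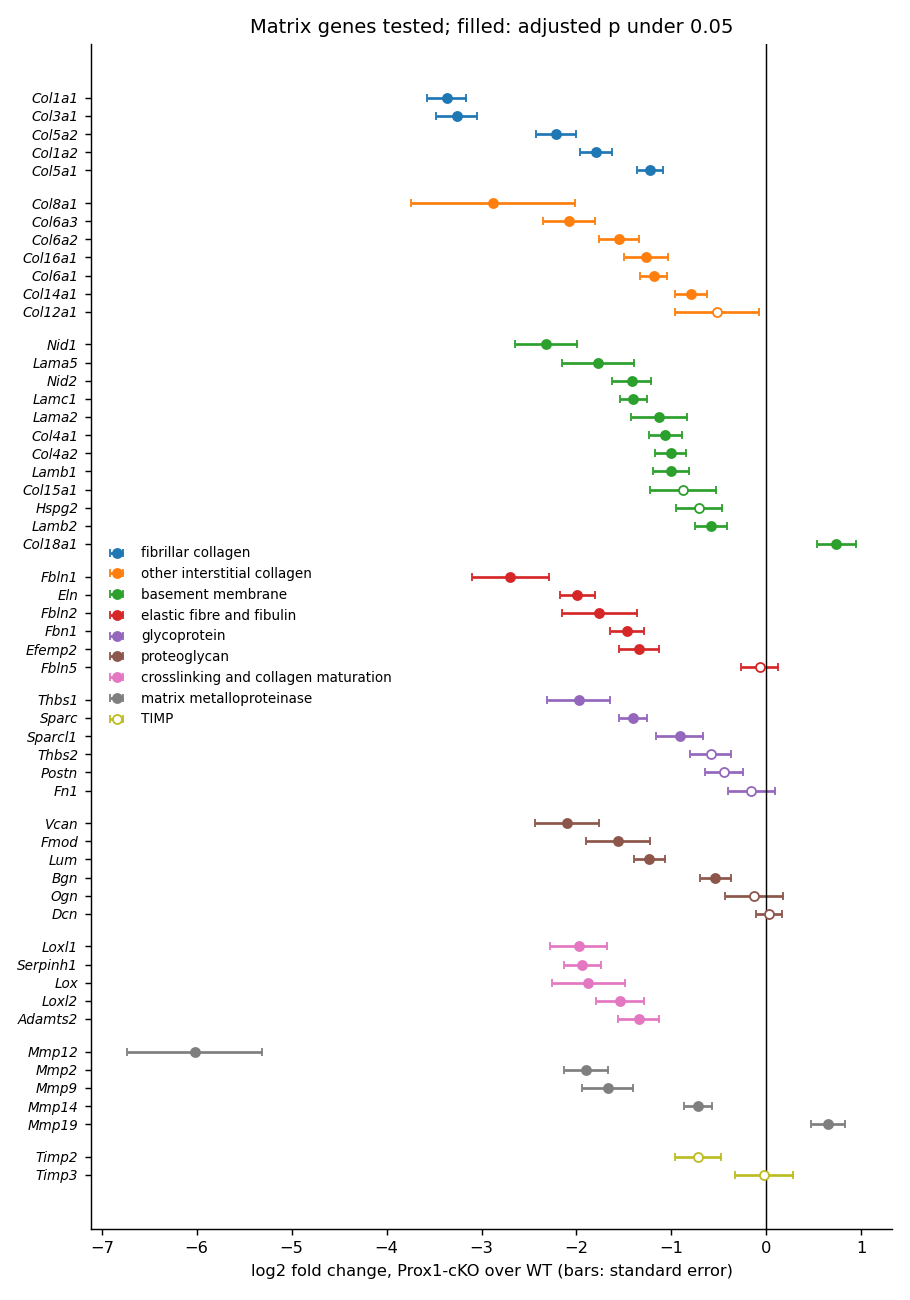
Log2 fold change of the 54 matrix genes tested (x axis, Prox1-cKO over WT, bars give the standard error), grouped by class. Filled points had an adjusted p under 0.05. All 5 fibrillar collagens lie left of −1, Col18a1 and Mmp19 are the 2 filled points right of 0, and Mmp12 lies far left at −6.02.

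The pool of matrix mRNA was also smaller as a share of raw reads. The share of all raw reads that belonged to matrix genes was between 0.444% and 0.554% for WT livers and between 0.270% and 0.335% for Prox1-cKO livers. Much of this pool was the mRNA of 2 proteins that hepatocytes secrete: Fn1 (fibronectin) held 38.2% to 48.1% of it in WT against 44.1% to 48.7% in Prox1-cKO, and Col18a1 (type XVIII collagen, the source of endostatin) held 13.9% to 14.9% in WT against 27.9% to 29.3% in Prox1-cKO. Without these 2 genes the share of the remaining 53 was between 0.187% and 0.221% for WT and between 0.0733% and 0.0880% for Prox1-cKO. Neither share overlapped between the groups. On the TMM scale the summed level of all 55 did overlap, at 3720.3 to 5087 CPM for WT against 3116 to 3978 CPM for Prox1-cKO, whereas the sum without Fn1 and Col18a1 stayed apart, at 1569 to 1884 CPM against 844 to 987 CPM.

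Fibrillar collagens had the lowest median of the 9 classes. All 5 were called lower, with a median log2 fold change of −2.22, and their summed level was 220.2 to 274 CPM in WT and 33.7 to 45.7 CPM in Prox1-cKO. Col3a1, the chain of type III collagen and the most abundant of the 5 in WT livers per kb of transcript, was 146, 119.8 and 117 CPM in WT and 15.5, 15.1 and 9.35 CPM in Prox1-cKO. The highest Prox1-cKO library was far under the lowest WT library (log2 fold change −3.26, standard error 0.22, adjusted p = 8.87e-05). Col1a1, the chain present in 2 copies in each type I collagen molecule, was 41.1, 28.4 and 37.2 CPM in WT and 3.19, 4.20 and 2.90 CPM in Prox1-cKO (log2 fold change −3.37, standard error 0.21, adjusted p = 6.16e-05), a fall to 9.64% of the WT level. Its partner chain Col1a2 was 52.1, 39.4 and 44.8 CPM in WT and 13.6, 14.9 and 10.6 CPM in Prox1-cKO (log2 fold change −1.80, standard error 0.17, adjusted p = 3.88e-04), a fall to 28.7%. The groups did not overlap for either chain, and the fall of Col1a2 was the smaller of the pair. Col5a2, a chain of type V collagen, which sits in the core of collagen fibrils, was 17.3, 14.7 and 11.3 CPM in WT and 3.25, 3.39 and 2.66 CPM in Prox1-cKO (log2 fold change −2.22, standard error 0.21, adjusted p = 4.26e-04). Col5a1, the other type V chain, was 17.9, 17.9 and 18.7 CPM in WT and 6.996, 8.14 and 8.10 CPM in Prox1-cKO (log2 fold change −1.23, standard error 0.13, adjusted p = 7.04e-04). One type V chain was thus at 21.5% and the other at 42.7% of WT. Each of the 5 calls held in every alternative fit and without each library in turn.

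**Figure D2:**
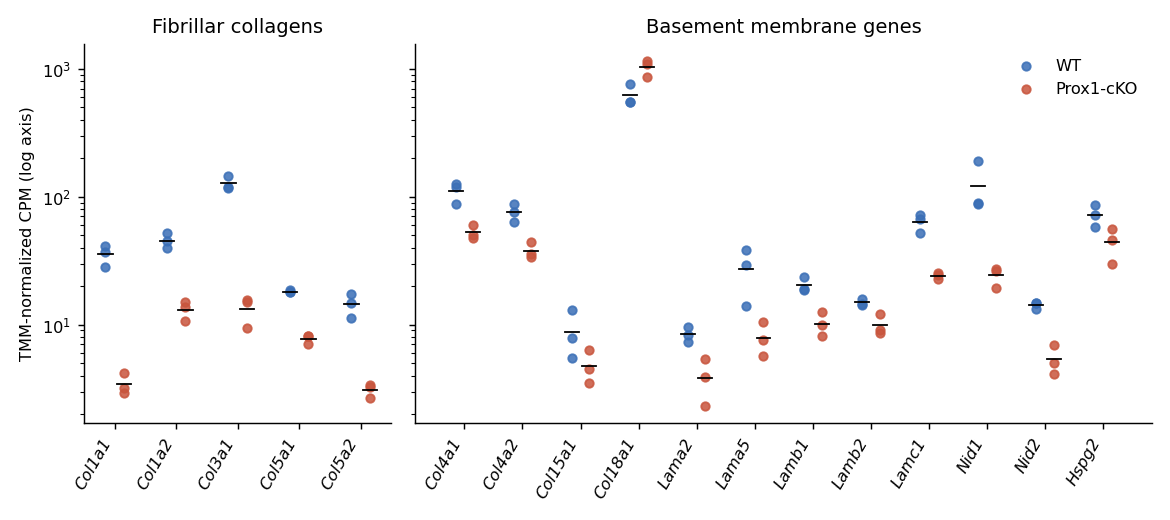
Level of each fibrillar collagen and basement membrane gene in every library (y axis, TMM-normalized CPM on a log axis, blue WT, red Prox1-cKO, n = 3 each, black lines are means). The 5 fibrillar collagens show no overlap between genotypes, Col18a1 is higher in Prox1-cKO, and Hspg2 and Col15a1 lie closest to or within the WT range.

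The promoters of 2 fibrillar collagens that fell to different depths, Col3a1 and Col1a2, are shown first to set them beside those of the basement membrane genes further on. Windows of 250 bases before to 50 after the start site (RefSeq, GRCm38.p6) were found for 37 of the 55 genes, in 45 windows. Capitals mark 1 of 4 motifs, each searched on both strands. The TATA box was searched as TATAAA. The CCAAT box was searched as its 5 letters. For the GC box the letters were GGGCGG, and for the AP-1 site, where N is any base, they were TGANTCA. Col3a1, at chr1:45311288-45311587 on the + strand, and Col1a2, at chr6:4505368-4505667 on the + strand, read as follows.
Col3a1: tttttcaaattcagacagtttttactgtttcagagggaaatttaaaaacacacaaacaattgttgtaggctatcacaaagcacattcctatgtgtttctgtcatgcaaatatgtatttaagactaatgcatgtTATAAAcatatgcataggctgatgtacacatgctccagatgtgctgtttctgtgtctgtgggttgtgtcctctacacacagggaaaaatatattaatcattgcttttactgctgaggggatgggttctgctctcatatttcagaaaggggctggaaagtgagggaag
Col1a2: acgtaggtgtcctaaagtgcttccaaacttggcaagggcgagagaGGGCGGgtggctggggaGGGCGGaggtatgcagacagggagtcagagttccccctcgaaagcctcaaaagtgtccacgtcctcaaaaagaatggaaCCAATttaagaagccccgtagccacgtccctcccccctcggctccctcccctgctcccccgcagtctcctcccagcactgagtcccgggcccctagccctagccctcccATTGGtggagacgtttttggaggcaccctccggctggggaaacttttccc
The Col3a1 window is AT-rich, with 37.7% G or C and 1 TATA box, whereas that of Col1a2 has 61.0% G or C, 2 GC boxes and 2 CCAAT boxes. The TATA letters of Col3a1 begin 117 bases before the start site. The CCAAT letters of Col1a2 begin 109 bases before its start site and at the start site itself. Among the 45 windows of matrix genes 29 held a GC box (64.4%), 15 a CCAAT box (33.3%), 5 a TATA box (11.1%) and 2 an AP-1 site (4.44%). Over all 32851 promoter windows these shares were 35.7%, 37.4%, 13.6% and 7.81%. The median G or C content was 60.3% in the windows of matrix genes and 52.7% in all windows, and the part of base composition in the share of GC boxes was not tested. A match describes letters, not bound protein.

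Within a library, the balance of the type I collagen chains did not overlap between genotypes. Per kb of transcript, the ratio of Col1a1 to Col1a2 reads was 0.710, 0.651 and 0.749 in WT and 0.211, 0.254 and 0.246 in Prox1-cKO, or 0.704 ± 0.049 against 0.237 ± 0.023 (SD, n = 3 each). Annotated exons span 12426 bases for Col1a2 and 6563 for Col1a1, against 5348 and 5930 in the transcripts used. The size of the ratio thus depends on the lengths chosen, which were the same in every library. The groups did not overlap, and the exact two-sided permutation test gave p = 0.1, the smallest that 3 against 3 samples allow (0.15 after adjustment over 3 ratios). The ratio of the type IV collagen chains, Col4a1 to Col4a2, was 1.62, 1.34 and 1.31 in WT and 1.32, 1.34 and 1.45 in Prox1-cKO. These groups overlapped (1.42 ± 0.17 against 1.37 ± 0.075, exact permutation p = 0.7, adjusted p = 0.7), and the sign of their difference turned to 0.0409 when WT replicate 1 was left out.

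**Figure D3:**
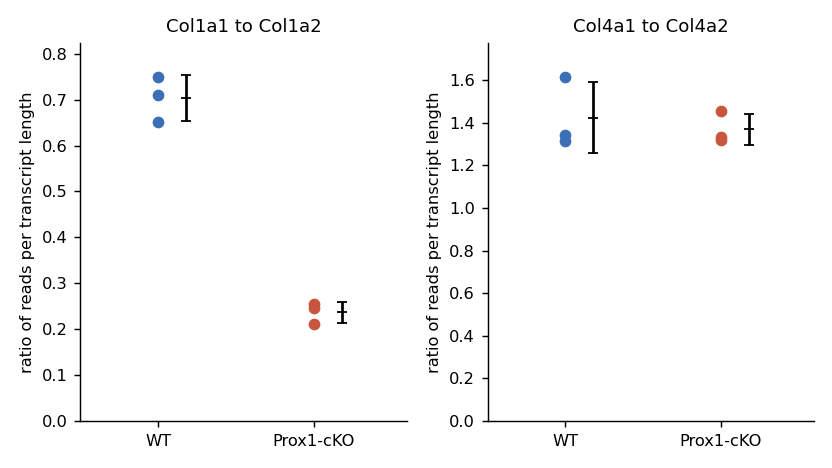
Ratio of partner collagen chains in each library (y axis, reads per transcript length of one chain over the other, points are libraries, black bars are mean and SD, n = 3 each). The Col1a1 to Col1a2 ratio is 0.651 to 0.749 in WT against 0.211 to 0.254 in Prox1-cKO, and the Col4a1 to Col4a2 ratios of the genotypes overlap.

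Basement membrane genes fell less deeply and not all in the same direction. Of the 12, 9 fell, 1 rose and 2 did not pass the test, with a median log2 fold change of −1.04. All 7 laminin and nidogen genes fell, with a summed level of 209.8 to 341 CPM in WT and 79.5 to 93.6 CPM in Prox1-cKO. Nid1 (nidogen-1), which links the laminin and type IV collagen networks, was 189.8, 88.5 and 87.2 CPM in WT and 27.4, 26.3 and 19.3 CPM in Prox1-cKO (log2 fold change −2.32, standard error 0.33, adjusted p = 0.00195). WT replicate 1 held more Nid1 than the other WT libraries, and all WT libraries lay above the Prox1-cKO range. Lama5, an alpha chain of laminin found in adult epithelial and vessel basement membranes, was 29.2, 14.01 and 38.5 CPM in WT and 5.68, 10.5 and 7.57 CPM in Prox1-cKO (log2 fold change −1.77, standard error 0.38, adjusted p = 0.00963). Its WT libraries were widely spread, and the lowest of them was above the highest Prox1-cKO library. Lamc1, the gamma chain shared by most laminins, had a log2 fold change of −1.40, as against −1.42 for Nid2, −1.13 for Lama2, −1.0 for Lamb1 and −0.58 for Lamb2, all called lower. The call of Lama2 was lost without WT replicate 2 (adjusted p = 0.0543) or Prox1-cKO replicate 1 (0.0640). That of Lamb2 was lost without WT replicate 1 (0.0651), 2 (0.0706) or 3 (0.0520) or Prox1-cKO replicate 1 (0.0980) or 3 (0.0848).

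Type IV collagen, the core of the basement membrane sheet, fell by about the same measure in both of its common chains. Col4a1 was 127, 86.9 and 118 CPM in WT and 47.8, 60.3 and 50.2 CPM in Prox1-cKO (log2 fold change −1.07, standard error 0.17, adjusted p = 0.00333). Col4a2 was 76.4, 63.2 and 87.7 CPM in WT and 35.4, 44.01 and 33.7 CPM in Prox1-cKO (log2 fold change −1.01, standard error 0.16, adjusted p = 0.00335). In both chains the lowest WT library was above the highest Prox1-cKO library, and Prox1-cKO replicate 2 was the highest of its group. These genes lie head to head on chromosome 8 (GRCm38), Col4a1 on the − strand at chr8:11198423-11312826 and Col4a2 on the + strand at chr8:11312805-11449287, with start sites 21 bases apart. Their promoter windows overlap and are shown because both chains fell and their start sites share 1 stretch of DNA. Col4a1, at chr8:11312777-11313076 and written on its own − strand, and Col4a2, at chr8:11312555-11312854 on the + strand, read as follows, with motifs in capitals as before.
Col4a1: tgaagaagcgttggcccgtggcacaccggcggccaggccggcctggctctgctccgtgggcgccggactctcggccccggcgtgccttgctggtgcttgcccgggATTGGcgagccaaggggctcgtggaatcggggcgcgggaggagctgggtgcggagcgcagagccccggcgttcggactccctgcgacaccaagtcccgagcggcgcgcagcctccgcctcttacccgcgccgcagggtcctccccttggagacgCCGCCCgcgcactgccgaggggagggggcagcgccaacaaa
Col4a2: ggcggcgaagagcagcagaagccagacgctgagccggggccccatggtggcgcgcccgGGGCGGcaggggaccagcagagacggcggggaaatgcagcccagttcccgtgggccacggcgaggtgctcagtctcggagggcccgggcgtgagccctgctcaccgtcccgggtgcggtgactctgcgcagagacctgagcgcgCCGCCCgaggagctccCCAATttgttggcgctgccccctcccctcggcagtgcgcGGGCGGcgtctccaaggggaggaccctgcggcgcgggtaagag
Neither window holds a TATA box. Each holds 1 CCAAT box, and GC boxes number 1 in the Col4a1 window and 3 in that of Col4a2, of which those in the overlap are counted in both. G or C make up 74.0% and 73.7% of the letters.

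Col18a1 was the basement membrane gene that rose. It was 547, 552 and 758 CPM in WT and 1144, 1085 and 868 CPM in Prox1-cKO (log2 fold change 0.74, standard error 0.21, adjusted p = 0.0275), or 167% of the WT level. The lowest Prox1-cKO library was above the highest WT library, WT replicate 3. Per kb of transcript it was the third most abundant of the 55 genes in WT, at 111 CPM per kb, after Fn1 and Dcn. The call was lost without WT replicate 1 (adjusted p = 0.0892) or 2 (0.0978) and without Prox1-cKO replicate 1 (0.0807) or 2 (0.0928), with log2 fold changes of 0.66 to 0.71 in those fits. With library totals alone the log2 fold change was 0.33 (adjusted p = 0.170). Col18a1 has 2 start sites in RefSeq, and reads per gene do not tell which of them was used. Both windows lie on the − strand, the downstream one at chr10:77113656-77113955 and the upstream one at chr10:77166481-77166780, and they are shown since no other basement membrane gene rose.
Col18a1 downstream start: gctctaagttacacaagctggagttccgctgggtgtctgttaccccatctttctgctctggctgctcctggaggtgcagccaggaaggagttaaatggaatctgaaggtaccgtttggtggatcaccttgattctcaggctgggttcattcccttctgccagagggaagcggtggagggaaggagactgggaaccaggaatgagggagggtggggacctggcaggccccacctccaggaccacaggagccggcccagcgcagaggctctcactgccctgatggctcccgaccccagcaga
Col18a1 upstream start: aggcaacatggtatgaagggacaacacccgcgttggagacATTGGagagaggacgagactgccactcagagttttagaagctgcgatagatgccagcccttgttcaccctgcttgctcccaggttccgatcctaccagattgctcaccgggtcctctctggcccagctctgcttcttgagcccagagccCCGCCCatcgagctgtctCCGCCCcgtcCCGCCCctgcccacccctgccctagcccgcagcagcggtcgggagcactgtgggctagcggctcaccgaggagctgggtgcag
The downstream window holds none of the 4 motifs, and the upstream window holds 3 GC boxes and 1 CCAAT box.

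The other 2 basement membrane genes did not pass the test. Hspg2 (perlecan), the heparan sulfate proteoglycan of these sheets, had a mean of 71.9 ± 13.9 CPM in WT and 43.9 ± 13.1 (SD, n = 3 each) in Prox1-cKO (log2 fold change −0.71, adjusted p = 0.0516), with no overlap between the groups. It passed without Prox1-cKO replicate 2 (log2 fold change −0.91, adjusted p = 0.0445) and in 5 of the 7 fits with another scaling, filter, block or tool. Col15a1, a type XV collagen close to Col18a1 in structure, had a mean of 8.81 ± 3.89 CPM in WT and 4.79 ± 1.47 (SD, n = 3 each) in Prox1-cKO (log2 fold change −0.88, adjusted p = 0.0880). Its groups overlapped. Col15a1 passed without WT replicate 2 (log2 fold change −1.12, adjusted p = 0.0451), with library totals alone (−1.29, adjusted p = 0.0203) and with no filter beyond 1 count (−0.86, adjusted p = 0.0389).

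The balance of the 2 kinds of matrix was taken within each library as summed CPM per kb of fibrillar collagens over that of basement membrane genes other than Col18a1. This ratio was 0.525, 0.633 and 0.515 in WT and 0.244, 0.222 and 0.197 in Prox1-cKO. No Prox1-cKO library reached the WT range, and this difference was not tested. The fibrillar sum was 38.0 to 47.6 CPM per kb in WT against 5.53 to 7.68 in Prox1-cKO, and the basement membrane sum without Col18a1 was 60.1 to 90.7 in WT against 28.1 to 34.6 in Prox1-cKO. With Col18a1 included, the basement membrane sum was 159 to 213 CPM per kb in WT against 183 to 234 in Prox1-cKO, and the groups overlapped.

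Other interstitial collagens fell in 6 of 7 cases (median log2 fold change −1.27). Col14a1, a fibril-associated collagen and the most abundant of the class, was 76.2, 93.3 and 119 CPM in WT and 56.5, 57.4 and 52.8 CPM in Prox1-cKO (log2 fold change −0.79, standard error 0.17, adjusted p = 0.0102). All 3 Prox1-cKO libraries were close together and under the WT range. Col6a3, a chain of the beaded type VI filaments around cells, was 30.3, 24.7 and 45.9 CPM in WT and 6.68, 10.2 and 6.92 CPM in Prox1-cKO (log2 fold change −2.08, standard error 0.27, adjusted p = 0.00142). The other type VI chains fell less, with log2 fold changes of −1.19 for Col6a1 and −1.55 for Col6a2. Col8a1, a short-chain collagen of vessel walls, was 1.15, 1.43 and 6.61 CPM in WT and 0.0625, 0.546 and 0.592 CPM in Prox1-cKO (log2 fold change −2.88, standard error 0.86, adjusted p = 0.0348). WT replicate 3 alone held most of the WT reads, and without it the log2 fold change was −1.63 (adjusted p = 0.0569). The Col8a1 call was also lost without Prox1-cKO replicate 1 (0.0953), 2 (0.0860) or 3 (0.0777). Col16a1, another fibril-associated collagen, fell (log2 fold change −1.27, adjusted p = 0.00506). Col12a1 had a log2 fold change of −0.52 (adjusted p = 0.396), with Prox1-cKO replicate 3 at 5.56 CPM inside the WT range of 3.32 to 6.05 CPM, and without that library the log2 fold change was −1.20 (adjusted p = 0.0401).

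Elastic fibre and fibulin genes fell in 5 of 6 cases, with a median log2 fold change of −1.61. Eln (elastin), the core of the elastic fibre, was 13.2, 12.7 and 13.6 CPM in WT and 3.31, 3.93 and 2.66 CPM in Prox1-cKO (log2 fold change −1.99, standard error 0.19, adjusted p = 3.77e-04). Fbn1 (fibrillin-1), which forms the microfibrils on which elastin is laid down, was 12.3, 12.7 and 15.5 CPM in WT and 5.06, 5.41 and 4.14 CPM in Prox1-cKO (log2 fold change −1.47, standard error 0.18, adjusted p = 0.00109). In both genes the lowest WT library was well above the highest Prox1-cKO library, and Eln varied little among WT libraries. Fbln1 (fibulin-1), made by fibroblasts, was 8.42, 4.88 and 13.4 CPM in WT and 1.37, 1.69 and 1.01 CPM in Prox1-cKO (log2 fold change −2.70, standard error 0.40, adjusted p = 0.00244), with the widest spread of the class among WT libraries. Fbln2 and Efemp2 (fibulin-4) also fell, with log2 fold changes of −1.76 and −1.34. Fbln5 (fibulin-5), which tethers elastic fibres to cells, had overlapping groups with means of 7.03 ± 0.947 CPM in WT and 6.68 ± 1.15 (SD, n = 3 each) in Prox1-cKO (log2 fold change −0.07, adjusted p = 0.804).

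Among the glycoproteins 3 of 6 fell, beside 20.2% of all genes tested. Fn1, by far the most abundant matrix mRNA, was 1504, 1599 and 2447 CPM in WT and 1937, 1634 and 1403 CPM in Prox1-cKO (log2 fold change −0.16, standard error 0.25, adjusted p = 0.658). The groups overlapped, WT replicate 3 was the highest library, and without it the log2 fold change was 0.11 (adjusted p = 0.686). Sparc (osteonectin), a collagen-binding protein, was 155, 131 and 121 CPM in WT and 55.03, 53.7 and 45.5 CPM in Prox1-cKO (log2 fold change −1.40, standard error 0.15, adjusted p = 5.92e-04). Thbs1 (thrombospondin-1), which can release TGF-beta from its latent form, was 5.34, 4.92 and 4.12 CPM in WT and 0.812, 1.86 and 0.946 CPM in Prox1-cKO (log2 fold change −1.98, standard error 0.33, adjusted p = 0.00376). Neither Sparc nor Thbs1 showed any overlap. Sparcl1, a relative of Sparc, fell (log2 fold change −0.91, adjusted p = 0.0254), but not when WT replicate 1 (0.0533) or Prox1-cKO replicate 2 (0.0592) was left out. Thbs2 (log2 fold change −0.59, adjusted p = 0.0684) and Postn (periostin, −0.44, adjusted p = 0.124) did not pass the test, although both did with library totals alone (adjusted p = 0.00808 and 0.0140). Without WT replicate 3, Postn had a log2 fold change of −0.57 (adjusted p = 0.0419).

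Proteoglycans were divided. Of these 6, 4 fell, beside 20.2% of all genes tested, and the median log2 fold change was −0.89. Dcn (decorin), which binds collagen fibrils and limits their width, was 199, 213 and 219 CPM in WT and 212, 233 and 197 CPM in Prox1-cKO (log2 fold change 0.03, standard error 0.14, adjusted p = 0.897). Its groups overlapped, and per kb of transcript it was the second most abundant matrix mRNA in WT. With library totals alone Dcn had a log2 fold change of −0.38 (adjusted p = 0.0505). Lum (lumican), the next gene along chromosome 10 and another collagen-binding proteoglycan of the same family, was 16.1, 12.5 and 16.9 CPM in WT and 6.31, 6.66 and 6.39 CPM in Prox1-cKO (log2 fold change −1.23, standard error 0.16, adjusted p = 0.00157). Lum showed no overlap between genotypes although it lies only 46984 bases from Dcn, and the difference between these neighbours was not tested. Bgn (biglycan), from the same family, was 134, 123 and 169 CPM in WT and 86.3, 109.6 and 97.7 CPM in Prox1-cKO (log2 fold change −0.54, standard error 0.16, adjusted p = 0.0366). The call of Bgn was lost without WT replicate 1 (0.0701) or 3 (0.0720) and without Prox1-cKO replicate 1 (0.128), 2 (0.0685) or 3 (0.0940). Vcan (versican), a large proteoglycan of provisional matrix, was 1.19, 1.22 and 1.17 CPM in WT and 0.250, 0.218 and 0.355 CPM in Prox1-cKO (log2 fold change −2.10, standard error 0.33, adjusted p = 0.00307). Fmod (fibromodulin), which also binds collagen, was 2.07, 1.68 and 3.05 CPM in WT and 0.875, 0.819 and 0.592 CPM in Prox1-cKO (log2 fold change −1.56, standard error 0.34, adjusted p = 0.0102). Both were low, at no more than 60 reads in a library, and did not overlap. Ogn (osteoglycin) was 2.56, 2.48 and 2.49 CPM in WT and 1.37, 2.95 and 2.54 CPM in Prox1-cKO, where replicate 1 was low and the other 2 lay within or above the WT range (log2 fold change −0.13, standard error 0.30, adjusted p = 0.772).

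All 5 crosslinking and collagen maturation genes fell, with a median log2 fold change of −1.87 in a narrow range of −1.98 to −1.35. Serpinh1 (HSP47), the chaperone of procollagen in the endoplasmic reticulum, was 35.1, 24.5 and 34.1 CPM in WT and 6.93, 7.92 and 9.58 CPM in Prox1-cKO (log2 fold change −1.94, standard error 0.19, adjusted p = 4.90e-04). Adamts2, which removes the amino-terminal propeptide of procollagen, was 11.9, 10.9 and 16.8 CPM in WT and 4.56, 4.86 and 6.09 CPM in Prox1-cKO (log2 fold change −1.35, standard error 0.22, adjusted p = 0.00326). Loxl1, a lysyl oxidase of elastic fibres, was 5.03, 4.25 and 7.47 CPM in WT and 1.31, 1.15 and 1.77 CPM in Prox1-cKO (log2 fold change −1.98, standard error 0.30, adjusted p = 0.00253). In each of these the groups were separate. Lox and Loxl2, which crosslink collagen, had log2 fold changes of −1.87 (adjusted p = 0.00876) and −1.54 (adjusted p = 0.00325). Lox had few reads, with 35, 34 and 53 in WT and 10, 10 and 6 in Prox1-cKO.

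Matrix metalloproteinases, which cut the matrix, fell in 4 of 5 cases. Mmp12, the macrophage elastase, was 20.9, 9.30 and 5.18 CPM in WT and 0.187, 0.273 and 0.0592 CPM in Prox1-cKO (log2 fold change −6.02, standard error 0.71, adjusted p = 9.68e-04). This was the largest fold change of the 54 genes tested, measured against only 3, 5 and 1 reads in the Prox1-cKO libraries, and without WT replicate 1, the highest, it was −5.32 (adjusted p = 6.22e-04). Mmp2 (gelatinase A), a product of fibroblasts and stellate cells, was 7.28, 6.44 and 9.91 CPM in WT and 2.06, 2.35 and 1.89 CPM in Prox1-cKO (log2 fold change −1.90, standard error 0.23, adjusted p = 0.00113). Mmp9 (gelatinase B), made by leukocytes, fell by 1.67 on the log2 scale (adjusted p = 0.00327). It had few reads, with 51, 63 and 48 in WT and 15, 13 and 11 in Prox1-cKO. Mmp14, the membrane protease that activates pro-Mmp2 and the most abundant of the class, was 53.1, 59.2 and 66.7 CPM in WT and 34.4, 32.2 and 42.2 CPM in Prox1-cKO (log2 fold change −0.72, standard error 0.15, adjusted p = 0.00829). Mmp19, a secreted protease, went the other way, at 37.2, 25.4 and 30.03 CPM in WT and 55.5, 40.1 and 49.6 CPM in Prox1-cKO (log2 fold change 0.65, standard error 0.18, adjusted p = 0.0258), with every Prox1-cKO library above every WT library. It no longer passed when WT replicate 2 (adjusted p = 0.0766), Prox1-cKO replicate 1 (0.0811) or Prox1-cKO replicate 3 (0.0666) was left out. With library totals alone its log2 fold change was 0.23 (adjusted p = 0.289). Exons of Mmp19 overlap those of Tmem198b and Gm47093 on the other strand over 1001 bases.

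None of the TIMPs, the inhibitors of these proteases, was called by edgeR with TMM scaling and the count filter, but for Timp2 and Timp1 this depended on the setting. Timp3, which is held in the matrix, was 20.9, 24.5 and 29.3 CPM in WT and 30.05, 30.5 and 12.8 CPM in Prox1-cKO (log2 fold change −0.02, standard error 0.31, adjusted p = 0.958). Prox1-cKO replicate 3 was under the WT range and the other 2 above it, and without that library the log2 fold change was 0.29 (adjusted p = 0.228). Timp2, which also takes part in the activation of pro-Mmp2 by Mmp14, was 17.99, 17.5 and 25.9 CPM in WT and 9.24, 16.4 and 11.5 CPM in Prox1-cKO (log2 fold change −0.72, standard error 0.24, adjusted p = 0.0515). Its groups did not overlap, and its unadjusted p was 0.0179. Timp2 passed in edgeR with library totals alone (log2 fold change −1.12, adjusted p = 0.00732), with no filter beyond 1 count (0.0209), with at least 10 counts in every library (0.0447) and without Prox1-cKO replicate 2 (log2 fold change −0.97, adjusted p = 0.0321). It also passed with DESeq2 (0.0416) and limma (0.0488), and did not pass with RLE size factors, with the replicate block or without any of the other 5 libraries (adjusted p from 0.0509 to 0.151). Timp1, the inducible inhibitor that rises in fibrosis, did not reach the count filter, with 21, 18 and 7 reads in WT and 0, 1 and 2 in Prox1-cKO. Its level in WT was 11.9 times that in Prox1-cKO (46 against 3 reads, exact 95% interval 3.82 to 59.7, which covers counting error only). Each of the 6 alternative fits that tested Timp1 called it lower, with adjusted p = 0.00284 in edgeR with no filter beyond 1 count, 0.00759 with DESeq2, and 0.00422 to 0.0474 in the 4 edgeR fits that left out 1 library and kept it. The ratio of Timp1 to Timp2 per kb was 0.152 ± 0.083 for WT against 0.0191 ± 0.022 for Prox1-cKO (SD, n = 3 each, exact permutation p = 0.1, the smallest possible, adjusted p = 0.15).

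The steps around collagen outside the 55 genes moved only in part, in lists chosen with earlier results of these data known. Of 24 collagen biosynthesis genes tested 9 fell and 3 rose, with a median log2 fold change of −0.25. Over all genes tested 20.2% fell and 14.1% rose, and the rises of this list were near that share. Pcolce, the enhancer of procollagen C-proteinase, was 127, 164 and 88.2 CPM in WT and 5.997, 6.28 and 4.67 CPM in Prox1-cKO (log2 fold change −4.48, standard error 0.26, adjusted p = 5.04e-05), while Bmp1, the proteinase itself, rose from 65.7, 82.4 and 103 CPM to 190.0, 198 and 229 (log2 fold change 1.30, standard error 0.19, adjusted p = 0.00216). Neither the enhancer nor the enzyme overlapped between genotypes, and their directions were opposite. Colgalt2 (−2.61), which adds galactose to collagen, and Creb3l1 (−2.37), a transcription factor for secretory and collagen genes, also fell, whereas the prolyl hydroxylase subunits P4ha1 (log2 fold change 0.32, adjusted p = 0.14), P4ha2 (−0.10, 0.81) and P4hb (0.32, 0.18) were not called. Of 13 further collagens tested 5 fell and 8 were not called, the falls led by Col6a5 (−3.94), Col4a3 (−2.76), Col6a6 (−2.65) and Col25a1 (−1.78).

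Receptors and signals of the matrix showed falls and rises. Of 23 matrix receptors 9 fell and 4 rose, beside 20.2% and 14.1% over all genes tested, so the rises were near that share. Ddr1, a receptor tyrosine kinase for collagen that epithelial cells carry, was 59.5, 58.8 and 33.5 CPM in WT and 1.94, 2.95 and 1.48 CPM in Prox1-cKO (log2 fold change −4.56, standard error 0.32, adjusted p = 1.05e-04). The laminin receptor subunit Itga6 (−3.43), the collagen receptor subunit Itga11 (−2.44) and the hyaluronan receptor Cd44 (−1.54) fell too, while Itgb3 (1.29) and Itga7 (1.23) rose. Ddr2, the collagen receptor of mesenchymal cells, had a log2 fold change of −0.37 (adjusted p = 0.19). Of 26 genes of the TGF-beta and PDGF axis, the main fibrogenic signals, 11 fell and 1 rose. Tgfb2 (−3.07), Tgfbr2 (−1.79), Cyr61 (−1.73) and Pdgfc (−1.44) fell most. Ctgf, which TGF-beta and YAP are known to induce, was the gene that rose, from 6.31, 7.70 and 7.01 CPM to 10.99, 15.7 and 8.81 (log2 fold change 0.76, standard error 0.23, adjusted p = 0.0354). Alternative fits are not given here for the genes of these further lists, Ctgf among them. Of 20 other matrix proteases and inhibitors tested 15 fell and 1 rose (Ctsl), with Mmp13 (−2.96), Plat (−2.88), Adamts15 (−2.59) and Mmp15 (−1.92) furthest down.

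Markers of the cells that make or remodel matrix moved unequally beside these genes. Their counts stand beside the 20.2% of all genes tested that fell and the 14.1% that rose. Of 5 portal fibroblast markers tested, out of 8 listed, 5 fell (Entpd2, Cd34, Mfap4, Dpt and Thy1), and their list summed to 24.3 to 27.1 CPM in WT and 6.33 to 10.1 CPM in Prox1-cKO. Of the myofibroblast and smooth muscle markers 7 were listed, 4 tested and 2 fell, with Acta2 (smooth muscle actin) at 5.34, 8.37 and 6.20 CPM in WT and 1.25, 1.31 and 1.24 CPM in Prox1-cKO (log2 fold change −2.38, standard error 0.25, adjusted p = 5.90e-04), and the list summed to 17.8 to 31.1 CPM in WT and 9.62 to 11.2 CPM in Prox1-cKO. Of 12 stellate cell markers 4 fell (Ngfr, Pdgfrb, Cygb and Lrat). The stellate list had a median log2 fold change of −0.15 and summed to 279 to 451 CPM in WT and 336 to 388 CPM in Prox1-cKO, so its groups overlapped. Reln, Colec11, Rgs5, Des, Ecm1, Lhx2, Hand2 and Hhip were not called. The 12 stellate markers went in both directions, with log2 fold changes of −1.67 to 0.89. In 5 of them every Prox1-cKO library lay below every WT library and in 2 above, beside 26.6% and 23.3% of all genes tested. Of 9 sinusoidal endothelium markers 1 fell (516 to 680.0 CPM summed in WT, 431 to 679.7 CPM in Prox1-cKO), and of 7 vascular endothelium markers 2 fell (166 to 195 CPM, 138 to 154 CPM).

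Markers of macrophages, biliary cells and dividing cells were lower as well, again beside 20.2% lower and 14.1% higher over all genes tested. Of 8 markers of recruited macrophages 7 fell (151 to 239 CPM summed in WT, 36.0 to 56.1 CPM in Prox1-cKO), and of 7 Kupffer cell markers 5 fell (502 to 1292 CPM, 454 to 635 CPM, with overlap). Of 7 cholangiocyte markers tested, out of 9 listed, 4 fell (131 to 205 CPM, 43.2 to 69.8 CPM). Spp1 is in both the recruited macrophage list and the cholangiocyte list, so its reads count in both sums. The dividing cell list fell in 7 of 8 genes (47.4 to 124 CPM, 13.3 to 16.1 CPM). Hepatocyte markers, in contrast, rose in 5 of 8 cases, with 3 not called, and the list summed to 66729.8 to 80531 CPM in WT and 108391 to 132700 CPM in Prox1-cKO. The mesothelium list of 6 had 1 gene tested, which was not called (2.23 to 3.81 CPM, 1.12 to 2.78 CPM). No marker of any list was at 0 in all 6 libraries. The part of these cell types in the changes of the matrix genes was not tested.

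**Figure D4:**
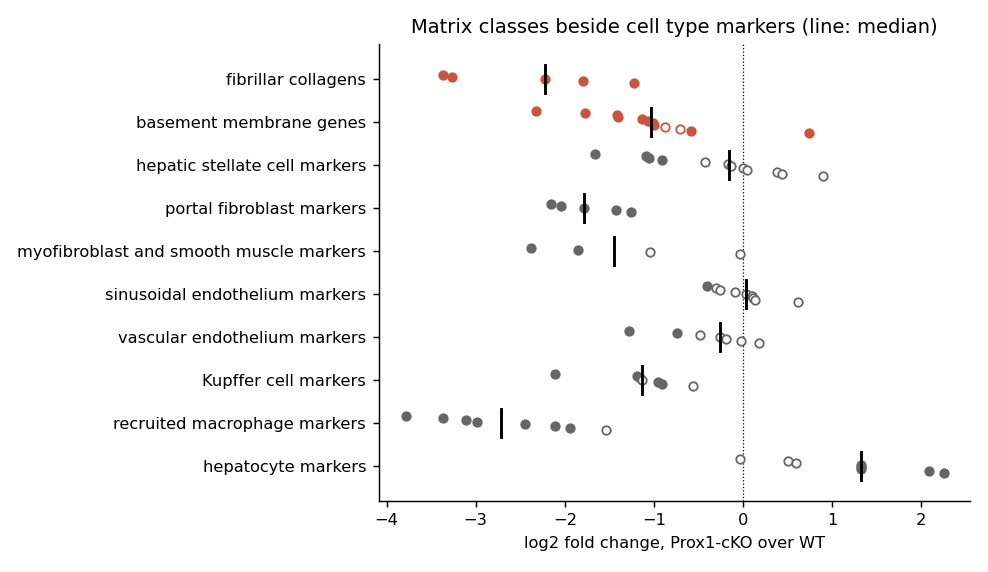
Log2 fold changes of single genes (x axis, Prox1-cKO over WT) in 2 matrix classes (red) and in lists of cell type markers (grey). Filled points had an adjusted p under 0.05 and black lines are medians of the genes tested. Fibrillar collagens have a median of −2.22 and portal fibroblast markers of −1.78, whereas stellate cell markers centre on −0.15 and hepatocyte markers on 1.32.

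The median coefficient of variation over the matrix genes was 18.8% in WT and 19.7% in Prox1-cKO, against 15.7% and 14.5% over all genes tested. Col8a1 was the most variable of the 55 in WT (100.4%), followed by Mmp12 (69.0%), Nid1 (48.3%), Fbln1 (47.9%) and Lama5 (45.4%). WT replicate 2 was the lowest WT library for 33 of the 55 genes, and among the Prox1-cKO libraries replicate 2 was the highest for 29 and replicate 3 the lowest for 28.

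The annotation placed several matrix genes side by side. Col3a1 and Col5a2 lie 24614 bases apart on chromosome 1 and point towards each other, and both fell by more than 2 on the log2 scale. Col6a1, Col6a2 and Col18a1 lie within 1 stretch of chromosome 10 on the − strand, and the first 2 fell while Col18a1 rose. Exons of 18 of the 55 genes overlap exons of another annotated gene. Among these are the 22 bases shared by Col4a1 and Col4a2, 1733 bases of Timp3 within Syn3, and 157 bases of Mmp12 shared with Mmp1b. Since the sources used here do not name the strand setting of the counting, reads from such overlaps cannot be told apart. Of the 41 falls, 36 were called in every alternative fit in which the gene was tested, and Col8a1, Lama2, Lamb2, Sparcl1 and Bgn were the 5 that were lost in at least 1.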

How the data were processed

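The authors deposited whole read counts per gene for 3 WT and 3 Prox1-cKO liver libraries. For their making, the notes of the submitters list HTSeq, DESeq, HISAT2 2.1.0 and a human build, GRCh38, although the identifiers belong to mouse genes and GENCODE M21 holds 29605 of the 29667. Neither annotation, filters nor strand setting are stated in the sources used here. A table named FPKM, whose columns all have the same sum, was not used. Counts were filtered by filterByExpr, scaled by TMM and tested with edgeR 4.0.16 (quasi-likelihood, genotype as the only term) in R 4.3.3, with Benjamini-Hochberg adjustment over all 14843 genes tested. Levels per kb use the longest protein-coding transcript in GENCODE M21 (GRCm38). Groups follow the sample titles. The 55 genes and all lists were chosen with earlier results of these data known. Values in every library are given for the 2 most abundant genes and the 2 largest log2 fold changes of each class and for genes that rose. Col5a1, Col5a2, Col4a2, Lum, Ogn, Bmp1, Ctgf, Acta2 and other genes named beside them were added after their values were seen. Up to 4 called genes with the largest log2 fold changes were named per further list. Alternatives were RLE scaling, library totals alone, 2 count filters, a replicate block, leaving out each library, DESeq2 1.42.0, limma 3.58.1 on the log2 of CPM plus 1, and 2 other thresholds. The scripts were tested on simulated counts. Figures were drawn with matplotlib 3.10.9.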

Additional observations from a re-analysis of the deposited data

How the results depend on the processing

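The counts of falls were 38 to 46 of the matrix genes over the alternative fits and 36 with a minimum of 2-fold, against 41. All 5 fibrillar collagens were called lower in each of them, and 7 to 11 basement membrane genes against 9. The counts of rises depended on the setting. With library totals alone, and with a minimum of 2-fold, 0 matrix genes and 0 basement membrane genes rose, against 2 and 1. Leaving out 1 library gave 0 to 2 rises among the matrix genes and 0 to 1 among the basement membrane genes. Over all genes tested, leaving out 1 library gave 1999 to 3468 falls and 1201 to 2604 rises, against 2999 and 2087, and library totals alone gave 6060 and 725. The replicate block gave 41 falls and 2 rises and changed no call of a matrix gene. The correlations of same-numbered libraries were 0.148, 0.0561 and 0.155, against −0.158 to 0.0589 for libraries with different numbers. WT replicate 2 correlated about equally with Prox1-cKO replicate 1 (0.0589) and replicate 2 (0.0561). Whether the replicate numbers mark pairs of samples cannot be told from these values. Some of the genes that were not called changed sign between fits, namely Fbln5, Fn1, Dcn, Ogn and Timp3. With library totals alone Dcn had a log2 fold change of −0.38, and with at least 10 counts in every library −0.0186, against 0.03. Leaving out 1 library gave −0.194 to 0.0556 for Fbln5, −0.28 to 0.11 for Fn1, −0.0282 to 0.0935 for Dcn, −0.34 to 0.14 for Ogn and −0.20 to 0.29 for Timp3. Leaving out 1 library for the chain ratios, chosen after seeing the data, gave differences of −0.49 to −0.44 for Col1a1 to Col1a2, −0.109 to 0.0409 for Col4a1 to Col4a2 and −0.18 to −0.10 for Timp1 to Timp2. The cause of these changes was not tested. Genes with few reads, such as Vcan, Fmod, Lox, Mmp9, Col8a1 and Timp1, limit what the depth can show.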
